A study of Mus musculus with 12 samples.

Results

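The genes described here are 7 components, regulators and receptors of the complement system: C1qa, C1qb, C1qc, C4b, Cfb, Serping1 and C3ar1. They were chosen with earlier results of these data known, and their probes were found by gene symbol in the platform's annotation. The annotation gave 1 probe for each, so the genes are 7 of the 13708 named genes kept for testing, and 7 of the 25697 probes in the table. Transcripts were measured with Illumina bead arrays in whole hearts of C57Bl/6 mice, 12 arrays in 3 groups of 4. The groups were aged mice of 30 to 32 months that had been given 3 mM spermidine, a natural polyamine, in their drinking water from month 4; untreated aged mice of 30 to 32 months; and untreated young mice of 6 months. All were housed specific pathogen free and fed a standard chow. The titles number the samples but do not state that each is another animal; the p-values therefore cover the variation among these 12 arrays only. The series asks which heart transcripts differ with age and with life-long spermidine, and the comparisons below put that question to the complement genes.

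Complement is a cascade of plasma and tissue proteins that marks microbes, debris and dying cells for removal. The classical pathway starts when C1q, built from an A, a B and a C chain, binds its target and switches on attached proteases, after which C4 is cut. The lectin pathway reaches C4 through ficolins and collectins, and the alternative pathway amplifies through factor B. The C1 inhibitor stops the proteases of the first step, and small fragments released on the way act on receptors of white blood cells. Most complement proteins of plasma come from the liver, whereas C1q is made largely by macrophages and other myeloid cells.

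The C1q genes lie side by side. In the RefSeq table of the mouse reference assembly, C1qc lies between C1qb and C1qa with 0 other genes in the interval. C4b and Cfb lie on another chromosome with 11 annotated genes between them, among them C4a, a near copy of C4b. A promoter window of 300 bases (250 before to 50 after the start) was found in RefSeq (GRCm38.p6) for 3 of the 7 genes, C1qb, C1qc and C3ar1. The windows of the neighbouring C1qb (chr4:136886151-136886450, minus strand) and C1qc (chr4:136892865-136893164, minus strand) are shown because these 2 genes are neighbours with the highest correlation within groups among the 15 pairs compared (r = 0.73, which did not pass after adjustment), and each is written 5′ to 3′ along the gene. Capitals mark matches to GAGGAA, the core bound by the myeloid factor PU.1, and to TGCTGA, one arm of the palindrome that Maf factors bind, on either strand.
C1qb: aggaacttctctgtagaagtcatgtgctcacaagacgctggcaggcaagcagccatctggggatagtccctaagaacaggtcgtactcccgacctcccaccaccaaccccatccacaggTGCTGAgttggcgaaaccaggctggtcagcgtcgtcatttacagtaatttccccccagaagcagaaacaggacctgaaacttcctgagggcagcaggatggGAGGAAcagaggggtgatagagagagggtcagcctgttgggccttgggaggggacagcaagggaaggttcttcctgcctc
C1qc: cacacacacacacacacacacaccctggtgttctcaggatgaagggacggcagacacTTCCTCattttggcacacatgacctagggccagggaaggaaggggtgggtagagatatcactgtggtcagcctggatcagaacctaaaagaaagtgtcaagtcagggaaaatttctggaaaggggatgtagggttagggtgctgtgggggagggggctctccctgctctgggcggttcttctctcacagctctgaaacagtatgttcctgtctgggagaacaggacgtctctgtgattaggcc
The PU.1 core stood once in each of the 2 windows, with its first base at position -30 from the start in C1qb and, on the other strand, at -193 in C1qc. The Maf arm stood in C1qb alone of the 2, at position -131. Of the 32851 RefSeq windows of the same length, 28.3% held the PU.1 core and 19.5% the Maf arm, so a match is a description and not a binding site. TATAAA was in neither window and in 13.6% of all windows. No match overlapped another. The C3ar1 window, which is not shown, held no PU.1 core. It held the Maf arm at -144, on the other strand, and TATAAA at -235. The pattern TTCNNNGAA was also searched and was in none of these windows, and in 8.3% of all windows.

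Intensities are given as log2(intensity + 16) after quantile normalization. The level above which a probe counts as detected, called the background limit here, was 3 SDs of an array's negative values mirrored about 0, which came to between 13.2 and 15.8 intensity units. C1qa, C1qb, C1qc, C4b and Serping1 stood above it on all 12 arrays, Cfb on 1 array and C3ar1 on 0. All 7 probes passed the filter on dim probes, which kept 20573. The hearts carried their own markers: all 9 cardiomyocyte genes with a probe were above the limit on all 12 arrays. Spermidine replicate 3 and young replicate 4 stood apart by transcripts of the airway, with Scgb1a1, a secreted protein of airway cells, at 11.47 and 12.89 log2 units on these arrays against 3.42 to 4.56 on the other arrays. Aged replicate 1 stood apart by Sln, a regulator of the calcium pump that marks the atria, at 9.75 against 12.79 to 13.46 on the other arrays. Values without these arrays are given with the calls below. Fewer cells of a type and less RNA per cell cannot be told apart in whole tissue.

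C4b was higher in both groups of aged mice than in young mice, and C1qc was higher in untreated aged mice than in young mice. C4b encodes complement component C4, which the classical and lectin pathways cut, and C1qc encodes the C chain of C1q. C4b was 2.27-fold and C1qc 1.64-fold higher in aged than in young hearts, and C4b was 2.57-fold higher in spermidine-treated than in young hearts. Between spermidine-treated and untreated aged hearts 0 of the 7 genes passed the test. Each call is an adjusted p below 0.05 from limma, fitted in one model over all 12 arrays and adjusted with the Benjamini-Hochberg method over all kept probes. Of the 7 member probes, 2 were called higher and 0 lower in aged against young hearts, where 0.797% of all kept probes were called and 0.54% were called higher. In spermidine-treated against young hearts 1 was called higher and 0 lower (0.16% of all probes, 0.151% higher), and in spermidine-treated against aged hearts 0 were called (0.00486%).

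**Figure D1:**
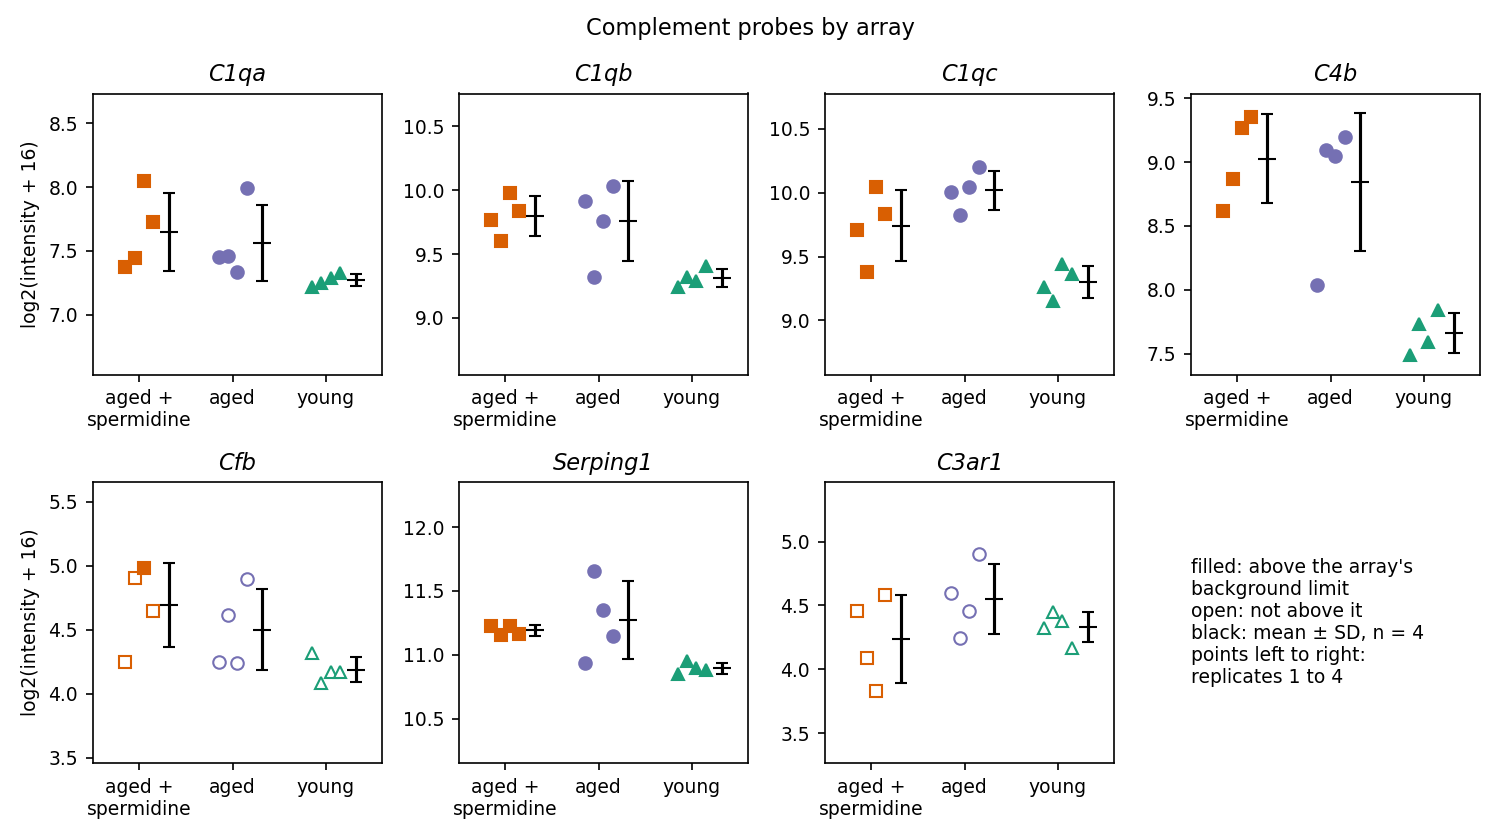
Log2 intensity (vertical axis) of the 7 complement probes on each array, with aged mice given spermidine on the left, untreated aged mice in the middle and young mice on the right; points run from replicate 1 to 4, open points lie at or below the background limit, and black bars are the mean ± SD (n = 4). All 8 arrays of the aged groups lie above all 4 young arrays for C4b and, by a narrow margin, C1qa.

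Of the 3 chains of C1q, the C chain passed the test in aged against young hearts and the A and B chains did not; differences between chains were not tested. C1qa, the A chain, stood at 7.38, 7.45, 8.05 and 7.73 log2 units in spermidine-treated hearts, at 7.45, 7.46, 7.33 and 8.0 in aged hearts, and at 7.22, 7.25, 7.29 and 7.33 in young hearts. All arrays of both aged groups were above all young arrays, although the lowest aged array exceeded the highest young one by less than the rounding, and spermidine replicate 3 and aged replicate 4 were the highest of their groups. The difference from young hearts was 0.38 (SE 0.17, adjusted p = 0.647) in spermidine-treated and 0.29 (adjusted p = 0.46) in aged hearts, neither past the threshold in limma. It was 0.25 in treated hearts without spermidine replicate 3 and 0.14 in aged hearts without aged replicate 4.

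C1qb, the B chain, stood at 9.77, 9.60, 9.97 and 9.84 in spermidine-treated hearts, at 9.92, 9.32, 9.76 and 10.03 in aged hearts, and at 9.24, 9.32, 9.29 and 9.41 in young hearts. Every treated array was above every young array, whereas aged replicate 2 lay within the young range. The differences of 0.48 (SE 0.15, adjusted p = 0.383) between treated and young and 0.45 (adjusted p = 0.186) between aged and young hearts did not pass in limma.

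C1qc stood at 9.71, 9.38, 10.05 and 9.83 in spermidine-treated hearts, at 10.001, 9.83, 10.05 and 10.20 in aged hearts, and at 9.26, 9.15, 9.44 and 9.37 in young hearts. All 4 aged arrays were above all young arrays, and among the treated ones replicate 2 lay within the young range. Aged hearts averaged 10.02 ± 0.15 and young hearts 9.30 ± 0.13 (mean ± SD over 4 arrays), a difference of 0.72 (SE 0.15, limma adjusted p = 0.0421). The difference between treated and young hearts was 0.44 (adjusted p = 0.431), and that between treated and aged hearts was -0.28 with a 95% interval from -0.59 to 0.04 (adjusted p = 0.564).

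C4b stood at 8.62, 8.87, 9.27 and 9.36 in spermidine-treated hearts, at 8.04, 9.09, 9.05 and 9.20 in aged hearts, and at 7.49, 7.73, 7.59 and 7.84 in young hearts. No array of an aged group overlapped the young range, and aged replicate 1 was the lowest of the 8. Treated hearts averaged 9.03 ± 0.35, aged hearts 8.84 ± 0.54 and young hearts 7.66 ± 0.15 (mean ± SD over 4 arrays). C4b rose by 1.36 in treated hearts (SE 0.24, limma adjusted p = 0.0407) and by 1.18 in aged hearts (SE 0.24, adjusted p = 0.0414) relative to young hearts. Treated and aged hearts differed by 0.18 with a 95% interval from -0.33 to 0.70, and without aged replicate 1 by -0.09. RefSeq lists C4a as a transcribed pseudogene in the reference assembly, and whether the C4b probe also catches its transcripts was not tested. The C4a probe was above the background limit on 0 of 12 arrays.

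Serping1, the C1 inhibitor, stood at 11.23, 11.15, 11.23 and 11.16 in spermidine-treated hearts, at 10.93, 11.66, 11.36 and 11.14 in aged hearts, and at 10.85, 10.95, 10.90 and 10.88 in young hearts. The treated arrays lay close together (SD 0.04, n = 4), as did the young ones (SD 0.04), with no overlap between them, whereas the aged arrays spread more widely (SD 0.31) and replicate 1 of them lay within the young range. The difference was 0.30 (SE 0.14, adjusted p = 0.665) for treated and 0.38 (SE 0.14, adjusted p = 0.222) for aged against young hearts, neither past the threshold in limma. The difference for aged hearts was 0.25 without aged replicate 2.

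Cfb encodes factor B, the protease of the alternative pathway, and C3ar1 the receptor for the fragment C3a. Their deposited intensities were too low for a fold to be given. Cfb read 3, 13, 17 and 8 in treated hearts, 3, 9, 3 and 14 in aged hearts and 4, 1, 2 and 2 in young hearts, and only spermidine replicate 3 was above the limit. C3ar1 read 6, 1, -2 and 7 in treated, 8, 3, 6 and 14 in aged and 4, 6, 5 and 2 in young hearts, with no array above the limit. For both genes the groups overlapped in all 3 comparisons, and the adjusted p in limma lay between 0.451 and 0.987.

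Over the 7 genes, the differences from young hearts lay between -0.09 and 1.36 in spermidine-treated hearts (median 0.44, 6 of 7 above 0 where 47.3% of all probes were) and between 0.22 and 1.18 in aged hearts (median 0.38, 7 of 7 above 0 where 48.2% were). The median over all kept probes was -0.01 in both comparisons. Between treated and aged hearts they lay between -0.31 and 0.19 (median 0.04, 4 of 7 above 0 where 50.9% were), with an all-probe median of 0.00. These ends and counts include Cfb and C3ar1, which lay at background; the 5 genes above it on all arrays lay between 0.30 and 1.36 in treated against young, between 0.29 and 1.18 in aged against young, and between -0.28 and 0.18 in treated against aged hearts. An unadjusted limma p below 0.05 was reached by 6 of 7 in treated against young hearts (7.49% of all probes), by 4 of 7 in aged against young hearts (14.3%) and by 0 of 7 in treated against aged hearts (9.45%). All treated arrays were above all young arrays for 4 of 7 genes (3.33% of all probes), and all aged arrays for 3 of 7 (4.06%). For C1qa and C4b, 2 of 7, all 8 arrays of the aged groups were above all young arrays, as for 1.27% of all probes. For C1qa the lowest of the 8 was 7.332 against 7.330 for the highest young array. In its deposited intensities, before normalization, both aged groups overlapped the young range. The comparisons share arrays and are therefore not independent of each other. The 7 genes were chosen with earlier results of these data known, so these counts are a description only.

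**Figure D2:**
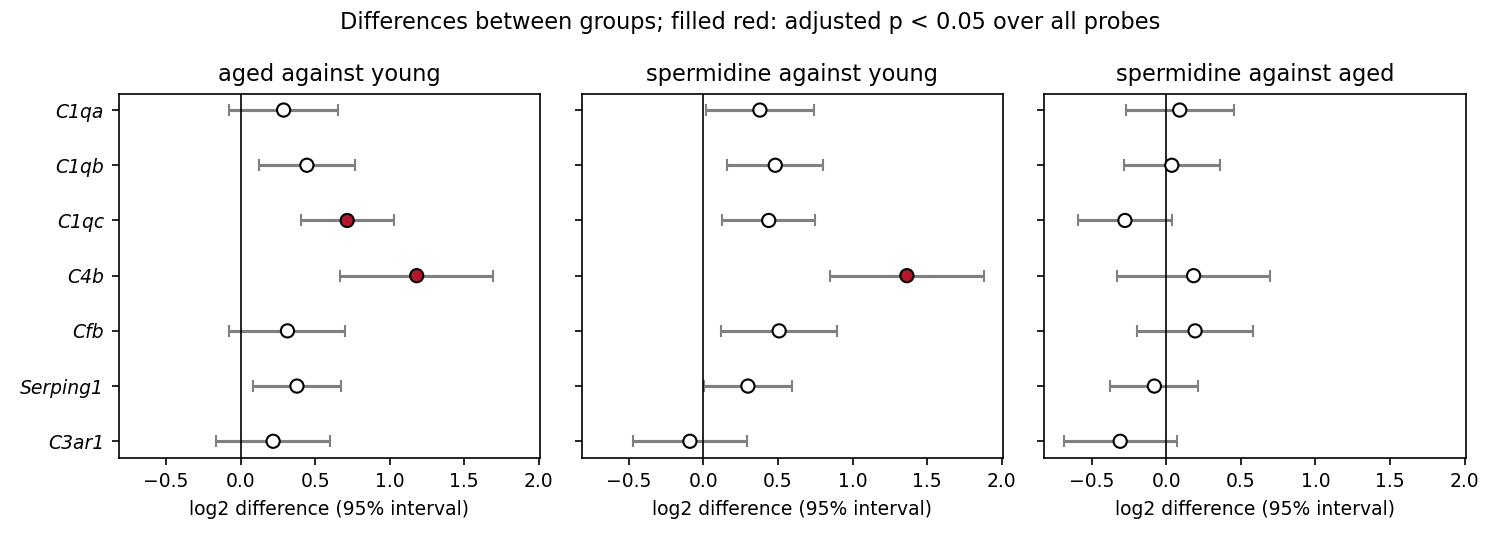
Log2 difference (horizontal axis) of each complement probe in aged against young, spermidine-treated against young, and spermidine-treated against aged hearts, with 95% intervals from limma; filled red points have an adjusted p below 0.05. C4b lies at 1.18 and 1.36 against young hearts, and all 7 intervals of treated against aged hearts include 0.

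The calls depended on single arrays. With each of the 12 arrays left out in turn, C4b stayed higher than in young hearts by 1.26 to 1.50 in treated and by 1.06 to 1.45 in aged hearts, and C1qc by 0.65 to 0.78 in aged hearts, but each call passed in few of the 12 fits. C4b in treated against young hearts passed in 4. It was lost without spermidine replicates 2, 3 and 4 (adjusted p = 0.0632, 0.171 and 0.171), aged replicate 3 (0.0519) and young replicates 1, 2, 3 and 4 (0.149, 0.114, 0.156 and 0.067). C4b in aged against young hearts passed in 4. It was lost without spermidine replicates 2 and 3 (0.0524 and 0.051), aged replicates 2 and 3 (0.102 and 0.0921) and young replicates 1, 2, 3 and 4 (0.136, 0.1, 0.124 and 0.0622), and its adjusted p was lowest, 0.00341, without aged replicate 1. C1qc in aged against young hearts passed in 3. It was lost without spermidine replicates 1 and 4 (0.0516 and 0.054), aged replicates 1, 2 and 3 (0.0814, 0.056 and 0.0877) and young replicates 1, 2, 3 and 4 (0.136, 0.123, 0.0912 and 0.0784). Without the 2 arrays with airway transcripts the differences were 1.34 for C4b in treated against young (adjusted p = 0.225), 1.24 for C4b in aged against young (0.0821) and 0.74 for C1qc in aged against young hearts (0.0741). Without these and aged replicate 1 they were 1.34 (0.0328), 1.51 (0.0116) and 0.74 (0.127). A fit with fewer arrays has less power.

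**Figure D3:**
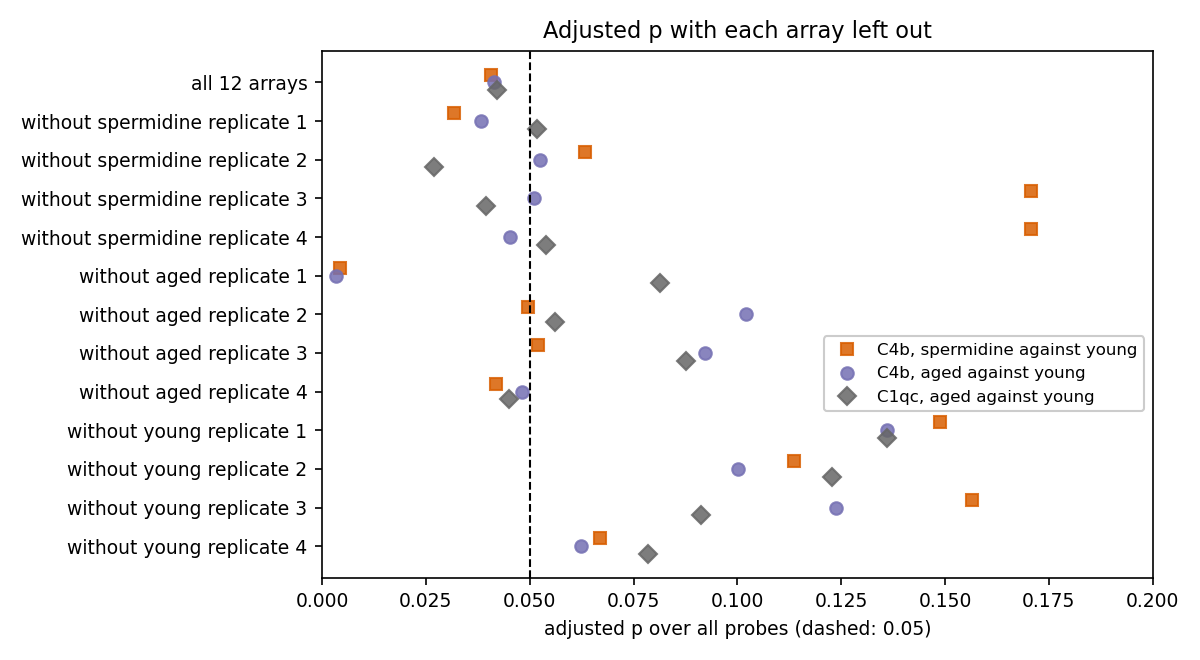
Adjusted p over all probes (horizontal axis, dashed line at 0.05) for C4b in spermidine-treated against young hearts, C4b in aged against young hearts and C1qc in aged against young hearts, with all 12 arrays and with each array left out. The 3 calls stand at 0.0407, 0.0414 and 0.0421 with all arrays, and all 3 lie above 0.05 without any 1 of the young arrays.

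Within groups, the C1q chains were compared as deviations from each group's mean over the 12 arrays, with exact permutation of the arrays inside each group (13824 arrangements, two-sided) and adjustment over 15 pairs of measures. C1qb and C1qc had a Pearson's r of 0.73 (exact p = 0.00557, adjusted p = 0.0836) and a Spearman's rho of 0.73 (exact p = 0.0168, adjusted p = 0.252), and r was 0.75 without the 2 arrays farthest from the median. C1qa and C1qc had an r of 0.72 (exact p = 0.048, adjusted p = 0.36) and a rho of 0.70 (exact p = 0.0472, adjusted p = 0.314), and r was 0.45 without the 2 farthest arrays. C1qa and C1qb had an r of 0.60 (exact p = 0.127, adjusted p = 0.373) and a rho of 0.60 (exact p = 0.0898, adjusted p = 0.316). Their r was 0.26 without the 2 farthest arrays. C1qb and Serping1 had an r of -0.73 (exact p = 0.163, adjusted p = 0.373) and a rho of -0.33 (exact p = 0.433, adjusted p = 0.595). Their r was -0.31 without the 2 farthest arrays. After adjustment 0 of the 15 pairs passed.

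Since macrophages are the main known source of C1q, their markers are given beside it. Of 22 such genes with a probe, 21 were kept, and in aged against young hearts 2 rose and 0 fell (0.797% of all probes were called), with 11 at an unadjusted p below 0.05 (14.3% of all probes) and 18 of 21 above 0 (48.2%; median 0.42). The 2 were Fcgr3, a receptor for antibodies, at 1.10 (limma adjusted p = 0.0223), and Cd84, a receptor of leukocytes, at 1.05 (adjusted p = 0.0231). With 1 array left out Fcgr3 passed in 7 of 12 fits and was lost without aged replicate 1 (0.0552) and young replicates 1, 2, 3 and 4 (0.0831, 0.0639, 0.0705 and 0.0535). Cd84 passed in 6 of 12 and was lost without aged replicates 1 and 3 (0.0599 and 0.0515) and young replicates 1, 2, 3 and 4 (0.0771, 0.0793, 0.0649 and 0.0579). Without the 2 arrays with airway transcripts both passed (0.0457 and 0.0248), and without the 3 unlike arrays both were lost (0.0911 and 0.0746). In treated against young hearts limma called 0 (0.16% of all probes), with 10 at an unadjusted p below 0.05 (7.49%) and 18 of 21 above 0 (47.3%; median 0.35). In treated against aged hearts it called 0 (0.00486%), with 4 at an unadjusted p below 0.05 (9.45%) and 5 of 21 above 0 (50.9%; median -0.10). The summed intensity of the 22 genes was between 9605 and 12667 in treated, between 10616 and 13482 in aged, and between 6700 and 9815 in young hearts, and Cybb alone of them was below the background limit on all arrays. The mean deviation of the 21 kept markers had an r with C1qc of 0.56 within groups (exact p = 0.144, adjusted p = 0.373; rho 0.57, exact p = 0.105, adjusted p = 0.315; 0.26 without the 2 farthest arrays), and with C4b of 0.61 (exact p = 0.158, adjusted p = 0.373; rho 0.42, exact p = 0.266, adjusted p = 0.547; 0.36). With C1qa the r of the markers was 0.42 (exact p = 0.327, adjusted p = 0.582), and -0.16 without the 2 farthest arrays. With C1qb it was 0.20 (exact p = 0.678, adjusted p = 0.783), and 0.20 without the 2 farthest arrays. With Serping1 it was 0.41 (exact p = 0.386, adjusted p = 0.582), and 0.30 without them. The part of macrophage content in the differences of C1q and C4b was not tested.

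Markers of the liver, the main source of plasma complement, were called by limma in 0 of 8 kept genes in all 3 comparisons, where 0.00486% to 0.797% of all probes were called. At most 1 had an unadjusted p below 0.05, where 7.49% to 14.3% of all probes had one. Alb, Fgb and Apoc3 of 10 were below the limit on all arrays. The summed intensity of the 10 was between 190.1 and 1355 in treated, between 130.1 and 605 in aged, and between 186 and 1617 in young hearts, and its part in the results was not tested. Fibroblast markers were called in 0 of 10 in each comparison, where 0.00486% to 0.797% of all probes were called. At most 2 of the 10 had an unadjusted p below 0.05, where 7.49% to 14.3% of all probes had one. Their medians were -0.22 in treated and -0.06 in aged against young hearts. Of 5 kept monocyte and neutrophil genes 1, Lcn2, rose in aged against young hearts, where 0.54% of all probes were called higher. It rose by 1.09 (limma adjusted p = 0.0446). With 1 array left out the call passed in 2 of 12 fits, those without spermidine replicate 1 and young replicate 2. Its adjusted p reached 0.148 without young replicate 1. The call was also lost without the 2 arrays with airway transcripts (0.134) and without the 3 unlike arrays (0.22). The list had 5 of 5 genes above 0 and 4 of 5 at an unadjusted p below 0.05 both in treated against young hearts (median 0.92; 47.3% and 7.49% of all probes) and in aged against young hearts (median 1.03; 48.2% and 14.3%). Its median in treated against aged hearts was 0.03, with 3 of 5 above 0 (50.9%) and 0 called by limma (0.00486%), and Ccr2 and Cxcr2 of the 7 with a probe were below the limit on all arrays. Their summed intensity was between 296 and 721 in treated, between 333 and 1121 in aged, and between 164 and 209.6 in young hearts, and its part in the results was not tested. Interferon response genes were listed because interferon is known to induce C4, factor B and the C1 inhibitor. They were called by limma in 0 of 13 in each comparison, where 0.00486% to 0.797% of all probes were called. An unadjusted p below 0.05 was reached by 7 in aged against young (14.3% of all probes), 0 in treated against young (7.49%) and 5 in treated against aged hearts (9.45%). Their median difference was 0.69 in aged against young hearts (12 of 13 above 0, 48.2% of all probes), 0.03 in treated against young hearts (8 of 13, 47.3%) and -0.44 in treated against aged hearts (0 of 13, 50.9%). The summed intensity of 14 of these genes was between 4162 and 8020 in treated, between 4335 and 25031 in aged, and between 3964 and 5621 in young hearts, and its part in the results was not tested.

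The other genes of the pathway were read by the brightest probe of each. Of 56 such genes listed, 45 had a probe and 38 a kept one, and the brightest probe was below the background limit on all arrays for 22. In these 38, 1 rose and 0 fell in aged against young hearts by limma (median 0.08, 22 of 38 above 0 where 48.2% of all probes were). In treated against young hearts 0 were called (0.16% of all probes), with a median of 0.03 and 21 of 38 above 0 (47.3%). In treated against aged hearts 0 were called (0.00486%), with a median of 0.03 and 23 of 38 above 0 (50.9%). An unadjusted p below 0.05 was reached by 6 in aged against young (14.3% of all probes), 4 in treated against young (7.49%) and 3 in treated against aged hearts (9.45%), and 0.797% of all probes were called in the first comparison. The gene that rose was Fcna, ficolin A, a lectin that starts the lectin pathway. Fcna stood at 7.88, 7.29, 8.24 and 7.75 in treated, 7.95, 8.50, 7.39 and 7.69 in aged and 6.24, 6.49, 6.34 and 7.19 in young hearts. No aged or treated array overlapped the young range, in which replicate 4 was the highest. Fcna differed by 1.32 in aged against young hearts (2.49-fold, SE 0.27, limma adjusted p = 0.042) and by 1.23 in treated against young hearts (adjusted p = 0.133), which did not pass. With 1 array left out, the first call passed in 5 of 12 fits. It was lost without spermidine replicates 1 and 4 (0.0516 and 0.054), aged replicates 1 and 2 (0.0965 and 0.0929) and young replicates 1, 2 and 3 (0.144, 0.117 and 0.129). It was also lost with no filter (0.0627), in the fit of 2 groups (0.0672) and without the 3 unlike arrays (0.0645). Without the 2 arrays with airway transcripts, among them young replicate 4, the difference in aged against young hearts was 1.52 and passed (0.0232). The difference in treated against young hearts passed with array weights (0.0342).

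C6, a terminal component that helps to form the membrane pore, had a pair of probes that disagreed. One stood at 4.39, 4.50, 4.61 and 5.15 in treated, 4.48, 4.99, 5.19 and 4.85 in aged and 3.69, 3.56, 3.26 and 3.30 in young hearts. It was above the background limit on 1 treated, 2 aged and 0 young arrays, so that the size of its difference is not measured and depends on the offset. The fitted difference in aged against young hearts was 1.42 (limma adjusted p = 0.00382), 0.83 in the authors' normalized table and 0.50 with an offset of 50, and it passed in all 21 alternatives that kept the probe. In treated against young hearts it was 1.21 (adjusted p = 0.0213), and the call was lost in 10 of 21. Among those were the authors' normalized table (0.68, adjusted p = 0.0666), the offset of 50 (0.41, 0.101), the fits without the 2 airway arrays (0.16) and without the 3 unlike arrays (0.125), and those without spermidine replicates 3 and 4 (0.0674 and 0.056) and young replicates 2, 3 and 4 (0.0558, 0.0931 and 0.0597). The other probe differed by 0.49 (adjusted p = 0.647) and 0.34 (adjusted p = 0.512) in the same comparisons and was above the limit on no array.

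Among the brightest genes of each role were the components C2 and C8g, the regulators Clu, Cd59a and Cd59b, and the receptors Calr, C1qbp and Cd93. All 8 were above the limit on all 12 arrays. Limma called 0 of them in any comparison (lowest adjusted p 0.226), where 0.00486% to 0.797% of all probes were called. Their differences lay between -0.26 and 0.26 in treated against young hearts, between -0.46 (Cd93) and 0.35 (Cd59b) in aged against young hearts, and between -0.31 and 0.27 in treated against aged hearts. A further 2 genes were chosen after their values were seen. Vsig4, a complement receptor of tissue macrophages, stood at 8.17, 7.74, 8.22 and 7.98 in treated, 7.54, 9.06, 7.33 and 8.01 in aged and 6.81, 6.48, 6.83 and 6.65 in young hearts. It did not overlap between young and either aged group but did not pass, with 1.33 in treated (limma adjusted p = 0.133) and 1.29 in aged hearts (adjusted p = 0.0598). It passed in 3 of 22 alternatives in treated hearts, the fit of 2 groups (0.00554), array weights (0.0472) and without aged replicate 2 (0.00554). In aged hearts it passed in 5, the authors' normalized table (0.0315), the offset of 50 (0.0437), the stricter filter (0.0348), array weights (0.0431) and without aged replicate 3 (0.0383). Cr1l, a membrane regulator of complement in rodents, stood at 6.88, 6.19, 6.65 and 6.31 in treated, 7.71, 7.88, 7.03 and 6.58 in aged and 6.62, 6.42, 6.43 and 6.58 in young hearts. Aged replicates 1, 2 and 3 were above all treated and young arrays. Its differences of -0.79 in treated against aged (adjusted p = 0.457) and 0.79 in aged against young hearts (adjusted p = 0.165) did not pass. Without aged replicate 4 the second was 1.03 and passed (0.0289). These values are from the brighter of the Cr1l probes. The dimmer one, above the limit on every array, stood at 6.00, 5.80, 6.10 and 5.67 in treated hearts. It stood at 6.89, 6.92, 6.39 and 5.51 in aged and at 6.05, 5.99, 5.94 and 5.94 in young hearts. On this probe aged replicate 4 was below all treated and young arrays. Masp2, a protease of the lectin pathway likewise named after its values were seen, differed by 0.999 in aged against young hearts by its brightest probe (SE 0.49, limma adjusted p = 0.377), with overlapping groups.

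**Figure D4:**
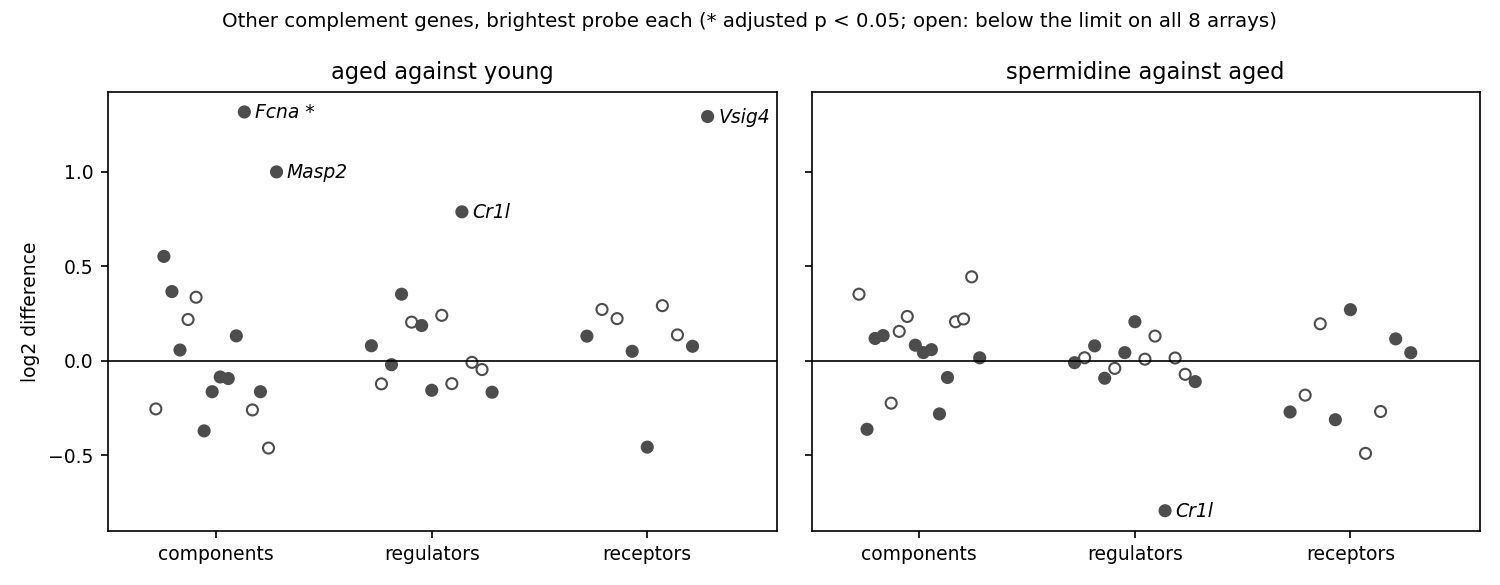
Log2 difference (vertical axis) of the kept complement genes outside the 7, by role and by the brightest probe of each, in aged against young and in spermidine-treated against aged hearts; open points are below the background limit on all 8 arrays of the comparison. Fcna at 1.32 carries the only asterisk (adjusted p below 0.05), and the other points include Vsig4 at 1.29 and Cr1l at 0.79 and -0.79.

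The genes most like the C1q chains in pattern were sought among 8832 named genes by Pearson's r with the mean of C1qa, C1qb and C1qc over the 12 arrays, as a description with no test. They were Nr1h3, a nuclear receptor for oxysterols (r = 0.93, rho = 0.95), Tnni2, the troponin I of fast skeletal muscle (0.92, 0.94), Adgre1, the macrophage marker F4/80 (0.91, 0.87), Slamf9, a receptor of myeloid cells (0.91, 0.84), and Slc1a2, a glutamate transporter (0.90, 0.88). With group means removed their r was 0.85, 0.81, 0.79, 0.75 and 0.71 in the same order. For C4b they were Serpina3n, an antichymotrypsin-like serpin (r = 0.94, rho = 0.90), Ccl9, a CC chemokine (0.94, 0.98), Cyp27a1, the mitochondrial sterol 27-hydroxylase (0.93, 0.88), Ncf4, a subunit of the phagocyte oxidase (0.92, 0.94), and Tlr7, a sensor of RNA (0.92, 0.87). With group means removed their r was 0.77, 0.75, 0.87, 0.79 and 0.60. These values share the same arrays and the difference between aged and young hearts.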

How the data were processed

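The authors deposited a non-normalized table and a normalized table, whose method the sources used here do not give, both of intensity values in whole numbers for 25697 probes; in the first, used for the main values, 24.1% lay below 0, so a background had been subtracted. RNA was labelled with biotin with an Illumina kit, per the labels' protocols. Detection p-values and control probes were not used here, and the arrays were quantile normalized, 16 was added, values under 1 were set to 1, and log2 was taken, a scale that understates changes of dim probes. Probes above the array's 25th percentile on at least 4 of 12 arrays were kept (20573, 80.1%). Genes were named from the platform annotation, with 23978 probes carrying 1 symbol, 0 several and 1719 none here. R 4.3.3 and limma 3.58.1 fitted 3 group means over 12 arrays (9 residual degrees of freedom); every adjusted p of a probe is from limma, two-sided. The fit was tested on simulated data. Mean intensity per array was 259 to 313, and the number of arrays limits precision. The members, gene lists and alternatives were chosen with earlier results of these data known. Named were the 7 members, other complement genes past the threshold, the 3 brightest of each role, and the 5 most like C1q or C4b; a gene list uses each gene's brightest probe. Some textbook complement genes were not analysed here, among them C3, Cfd, Cfp and C7. Alternatives were the authors' normalized table, median centring, an offset of 50, other filters, fits of 2 groups, a replicate block, array weights and leaving out arrays.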

Additional observations from a re-analysis of the deposited data

Results flagged for a closer look

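C4b stood at 8.04 log2 units in aged replicate 1, far below the other 3 aged hearts, which lay between 9.05 and 9.20. The gap to the nearest array was 0.874 of the group's range. Aged replicate 1 is also the array that stood apart by low Sln, and a link between them was not tested. Fcgr3 stood at 6.20 in young replicate 1, below the other 3 young hearts at 6.33 to 6.35, a gap of 0.844 of the range within a group whose values lay close together. Both gaps were above Dixon's 95% critical value for 4 samples. These were 2 flags among 66 groups of 4 arrays (22 probes), where chance flags about 1 in 20.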

How the results depend on the processing

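Over 22 alternatives, C4b stayed higher than in young hearts by 1.23 to 1.50 in treated and 1.06 to 1.51 in aged hearts, and C1qc by 0.65 to 0.78 in aged hearts. In the same order, the call was lost in 10, 11 and 13 of the 22, by adjusted p alone. The cause of these losses was not tested. Member probes called in aged against young hearts numbered 1 with median centring, 1 in the fit of 2 groups and 1 when the 3 unlike arrays were dropped, 0 with no filter on dim probes and 0 without the 2 arrays with airway transcripts, and 0 to 2 with 1 array left out. In treated against young hearts they numbered 0 with no filter and 0 without the 2 airway arrays, and 0 to 1 with 1 array left out; in treated against aged hearts 0 in limma in all 22, with 0 to 2 of them at an unadjusted p below 0.05. Probes called in aged against young hearts numbered 299 in the authors' normalized table, 378 with an offset of 50, 90 with no filter, 331 with a stricter filter, 97 in the fit of 2 groups, 372 with array weights, 70 without the 2 airway arrays, 50 without the 3 unlike arrays and 41 to 559 with 1 array left out. In treated against young hearts they numbered 51 in the fit of 2 groups, 105 with array weights, 12 without the 2 airway arrays, 16 without the 3 unlike arrays and 16 to 48 with 1 array left out, and in treated against aged hearts 0 to 49 with 1 array left out. The replicate block gave 96 probes in aged against young and 0 in treated against aged hearts by limma, where 1 passed without it and 2006 had an unadjusted p below 0.05; the numbers share no stated origin, and 3 of 12 same-numbered pairs of arrays correlated above 0.1 (r from -0.27 to 0.21), so they were not read as pairs; with the block, adjusted p was 0.0848 for Fcna in aged against young and 0.0639 for C6 in treated against young hearts. Differences of treated against aged hearts changed sign without the 2 airway arrays for C1qa (-0.0425), C1qb (-0.0226) and Vsig4 (-0.0237), and without the 3 unlike arrays for C1qa (-0.0781), C4b (-0.17) and Vsig4 (-0.17). With 1 array left out they spanned 0 for C1qa (-0.0425 to 0.24), C1qb (-0.11 to 0.13), C4b (-0.0854 to 0.32), Serping1 (-0.19 to 0.0476), Vsig4 (-0.18 to 0.40) and Fcna (-0.25 to 0.12), as did C3ar1 in treated against young hearts (-0.21 to 0.0452). Signal near the background limits what can be said of Cfb, C3ar1 and C6.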
